A study of Mus musculus with 15 samples.

Results

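The transcriptome described here is that of resting wild-type (WT) mouse bone marrow-derived macrophages (BMDM), as the FPKM column of the untreated WT group gave it for 23996 genes. FPKM is the number of sequenced fragments of a gene scaled to its transcript length and to the mapped fragments of the library, a unit in which genes of different length can be compared. The column is the average the authors made over 3 of the 15 libraries of the RNA-seq experiment, and all 23996 genes were ranked by it with no further selection. It carries 1 value per gene, so no error, no SD and no test between libraries could be given, and the number of fragments behind a value is unknown. WT cells were Nelfb+/+ and carried Lyz2-Cre, a Cre recombinase driven from the lysozyme gene of myeloid cells, as did the Nelfb fl/fl cells called Nelfb KO. The other groups were resting Nelfb KO, WT with lipopolysaccharide (LPS, 10 ng/ml) for 30 or 60 min, and Nelfb KO with LPS for 30 min, with 3 libraries each. They were used only to mark values in the resting WT column that stood above the median of the other groups, and to give the range of a share or level beside it. BMDM were grown for 5 days from C57BL/6 bone marrow in medium with 10% serum and 10% supernatant of L929 fibroblasts, which supplies M-CSF. Age and sex of the mice, and whether a library was 1 mouse or a pool, are not given in the sources used here.

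Macrophages are phagocytes that engulf microbes, dead cells and debris and break them down in lysosomes. BMDM arise from marrow progenitors under M-CSF, whose receptor Csf1r signals for survival and growth, and the ETS factor PU.1 (gene Spi1) sets their identity together with C/EBP, IRF and MAF factors. At rest they hold the sensors of infection ready, whereas most inflammatory cytokine genes are induced only after a microbial signal.

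The highest values of the column belonged to short RNA features and not to mRNAs. Mir6236 was listed at 37373.5 FPKM, which was 6.08% of the FPKM sum of 615071, Mir7649 at 14046.0 FPKM (2.28%) and Mir692-2b at 8521.73 FPKM (1.39%), against 4721.89 FPKM for B2m, the highest mRNA. The mature sequences of the microRNAs at these loci are shown because they are what the symbols stand for, from RefSeq (GRCm38.p6), with the seed, bases 2 to 8, in capitals. Mir6236 lies at chr9:110281353-110281371 on the plus strand, the arms of Mir7649 at chr6:128974840-128974862 and chr6:128974874-128974895 on the minus strand, those of Mir7115 at chr11:70438256-70438279 and chr11:70438297-70438318 on the plus strand, and Mir703 at chr5:98475616-98475636 on the minus strand.
mmu-miR-6236: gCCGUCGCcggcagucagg
mmu-miR-7649-3p: uCUCUCCAgcacugcuuguuucu
mmu-miR-7649-5p: uGACAGCAgugcuguagacaug
mmu-miR-7115-5p: uCGGGGGUuguggugccgaauugu
mmu-miR-7115-3p: aCUUGGUCcccugcccccacag
mmu-miR-703: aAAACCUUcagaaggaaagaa
None of these seeds was shared. The libraries were made from polyadenylated RNA, so these values are no measure of mature microRNAs, and FPKM divides by a very short length here.

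Some of these features were steady between groups and others were not. Mir6236 was at 31329.6 to 35754.3 FPKM and Mir692-2b at 7450.48 to 9309.79 FPKM in the other groups. Mir7649, by contrast, was at 8680.51 FPKM in resting Nelfb KO and was listed at 0 in all 3 LPS groups. Mir7115, which lies in the locus of Arrb2, was at 2102.92 FPKM and was listed at 0 in WT at 30 min. Mir7052, at 1189.85 FPKM at rest, was listed at 0 in 3 groups and stood at 696.477 FPKM after 30 min of LPS in WT. Of 1239 small noncoding RNA genes, 1176 (94.9%) were listed at 0 in resting WT and 27 reached 100 FPKM, and 21 of those 27 were listed at 0 in 1 or more other groups. Of the 889 other genes at 100 FPKM or more, none was listed at 0 in any other group. The class of small noncoding RNAs held 11.6% of the FPKM sum, so shares are given below both of the whole sum and, where it matters, of the 543713 FPKM left without that class.

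A total of 10441 genes (43.5%) reached 1 FPKM, the limit by which the study calls a gene expressed, and they held 99.8% of the sum. At least 10 FPKM was seen for 5690 genes, at least 100 FPKM for 916 genes and at least 1000 FPKM for 103 genes (0.429% of genes, 38.6% of the sum). The median over expressed genes was 11.65 FPKM. A further 6111 genes lay above 0 and under 1 FPKM and together held 0.170% of the sum, and 7444 genes (31.0%) were listed at 0, 5647 of them in all 5 groups. The 10 highest genes held 14.4% of the sum, the 100 highest 38.1% and the 1000 highest 73.8%, and 209 genes held 50% of it. Without the small noncoding RNAs the 10 highest held 6.89%, and 280 genes held 50%.

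**Figure D1:**
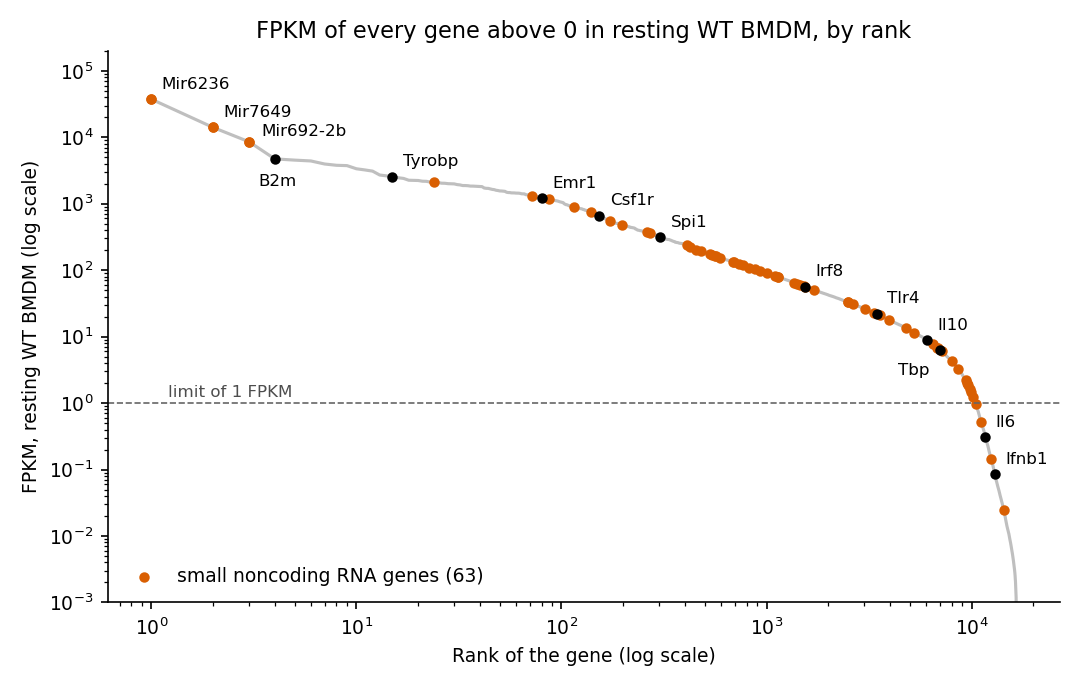
FPKM in resting WT BMDM against rank for every gene above 0, both axes on a log scale, with 63 small noncoding RNA genes in orange, named genes labelled and the limit of 1 FPKM dashed; 52 genes under 0.001 FPKM fall below the axis. Mir6236, Mir7649 and Mir692-2b stand above a slow decline that starts with B2m at 4721.89 FPKM and falls away below 1 FPKM.

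Genes of well-known macrophage proteins were among the zeros. Both ferritin subunits, Fth1 (chr19:9980598-9985098) and Ftl1 (chr7:45457944-45459884), which store iron, were listed at 0 in all 5 groups. So were Tmsb4x, which encodes the actin-binding thymosin beta, Apoe, the lipid carrier of macrophages, the lysosomal proteases Ctsb and Ctsd, Psap, the precursor of sphingolipid activators, Gpnmb, a lysosomal membrane glycoprotein, and Fdft1, the squalene synthase gene that overlaps the end of Ctsb on chromosome 14. These 9 genes, apart from the ferritins and Apoe, were named after their values were seen. Of 28 genes used by every cell none was listed at 0, and they ranged from 6.36 FPKM (Tbp) to 4721.89 FPKM (B2m). A 0 in this table can be a failed estimate, so such genes are only said to be listed at 0. Every share is of a sum without these genes, and the cause was not tested.

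The mRNAs at the top were those of translation, the cytoskeleton and phagocyte functions. After B2m, the light chain of MHC class I, came Eef1a1 (4522.82 FPKM), the elongation factor that brings aminoacyl-tRNA to the ribosome, Rplp1 (4392.9 FPKM), Actb (3954.45 FPKM), Prdx1 (3780.76 FPKM), a peroxidase, and Rpl41 (3737.46 FPKM). Tpt1, a translationally controlled protein, was at 3352.35 FPKM and Ctss, a cysteine protease that trims the MHC class II invariant chain, at 3218.79 FPKM. Among the 50 highest genes were also Tyrobp (2555.22 FPKM), Itm2b (2456.02 FPKM), C1qb (2397.31 FPKM), the cyclophilin gene Ppia (2252.84 FPKM), Lgals3 (1999.95 FPKM), the protease inhibitor Cst3 (1984.74 FPKM), Spp1 (1874.09 FPKM), H2-D1 (1838.96 FPKM), Cfl1 (1814.38 FPKM), Ctsz (1697.51 FPKM), Pkm (1639.31 FPKM), Fcer1g (1626.94 FPKM) and Fabp5 (1577.17 FPKM). Tyrobp, which encodes the adaptor of activating myeloid receptors, ranked 15 of 23996 and C1qb, a chain of the first complement component, ranked 17, among ribosomal protein genes.

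Values of short genes were higher in this column than in the others. For 10418 genes at 1 FPKM or more, and at 0.1 FPKM or more in the median of the other 4 groups, the median ratio of resting WT to that median was 1.01. It went from 1.33 in the decile of genes with the shortest transcripts (64 to 1205 nt) to 0.85 in the decile with the longest (6431 nt and over), falling at each step. A value was marked as raised when the ratio was 1.5 or more, which held for 681 genes (6.54%), with a ratio of 2 or more for 80 genes (0.768%), and for 29.3% of the shortest and 0.290% of the longest decile. Of the 49 assessable genes among the 50 highest, 19 (38.8%) were raised. They were led by Rplp1 (ratio 1.81), Rpl41 (2.03), Rps12 (1.75), Rps29 (1.54), Rps20 (1.82), Rplp2 (2.07), Rps15 (1.91), Fau (1.86), Rpl38 (2.23) and Mir7115 (2.24). Genotype and LPS differ between the groups as well, so ratios of single genes cannot be told apart from those effects, and whether library preparation moved the short genes was not tested.

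**Figure D2:**
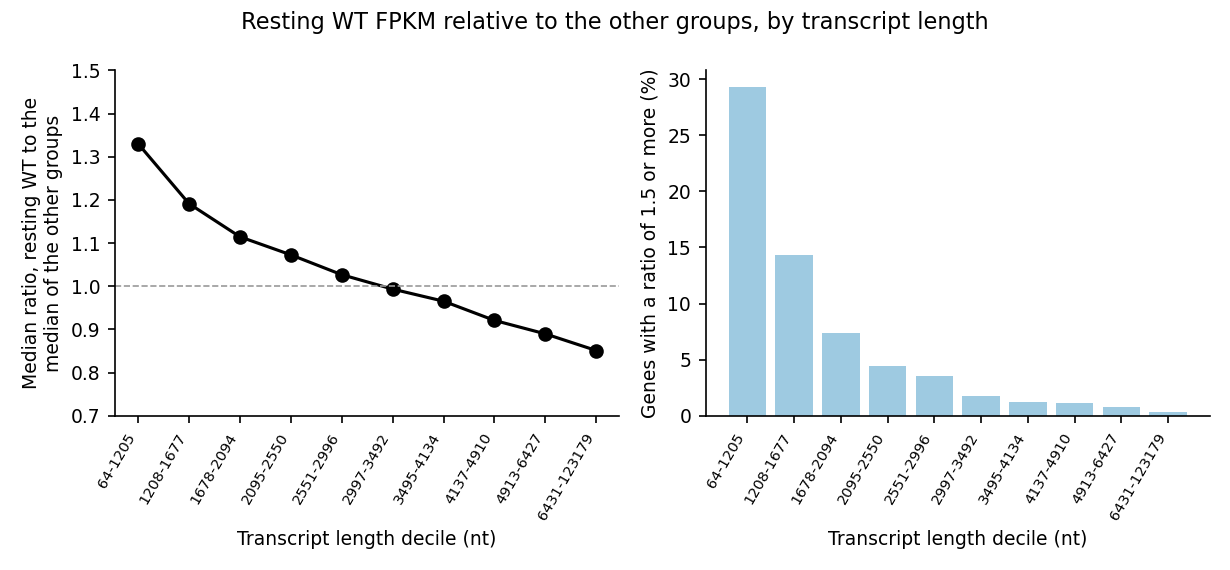
Left, the median ratio of resting WT FPKM to the median of the other 4 groups, and right, the percent of genes with a ratio of 1.5 or more, by decile of transcript length in nt (1031 to 1036 genes per decile). The median ratio falls from 1.33 to 0.85 and the raised share from 29.3% to 0.290% from the shortest to the longest decile.

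Cytosolic ribosomal proteins were the largest named class of mRNAs, with 16.99% of the FPKM sum, or 19.2% without small noncoding RNAs, but 8.79% of FPKM times length and 8.35% among genes of at least 1000 nt. Of 95 such genes 93 reached 1 FPKM, at a median of 1106.69 FPKM. Their values were not even, and 38 of 93 (40.9%) were raised, against 6.54% of all genes assessed. The share was 29.3% in the shortest length decile, to whose range the median length of the class (886.5 nt) belongs. In the other groups the class held 12.1% to 13.02%, below the resting WT share. Rplp1, Rpl41, Rps12 and Rps29 (2697.98 FPKM) led the class, whereas Rps27 was at 12.1 FPKM, Rpl30 at 31.2 FPKM, Rpl26 at 62.2 FPKM and Rps15a at 84.99 FPKM. Rps27rt, a near-identical copy of Rps27, was at 2086.02 FPKM. The 4 low ones were named after their values were seen, and values of genes with processed copies are uncertain because the authors kept uniquely mapped reads. Mitochondrial ribosomal proteins held 0.497%, with all 77 at 1 FPKM or more. They were led by Mrps21 (194.302 FPKM, ratio 1.71), Mrpl52 (1.59), Mrpl33 (1.56) and Mrpl23 (1.79).

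Lysosomal genes came next among the mRNA classes. Genes of the lysosome, lysozyme and vacuolar ATPase held 4.90% of the sum, although Ctsb, Ctsd, Psap and Gpnmb add nothing to it, and 90 of 114 reached 1 FPKM. Ctss, Cst3, Ctsz (ratio 1.63) and Lamp1 (1441 FPKM) led the class. They were followed by Cd63 (1439 FPKM), Grn (1358 FPKM), which encodes progranulin, Cd68 (1357 FPKM), Ctsl (1194 FPKM) and Lgmn (1069 FPKM), which encodes legumain. Of the lysosomal genes 3 of 90 (3.33%) were raised, against 6.54% of all genes assessed. The share was 4.45% in the length decile of 2095 to 2550 nt, to which their median length (2412 nt) belongs. Actin and tubulin genes held 4.44%, led by Actb, Actg1 (1873.43 FPKM), Cfl1 and Myl6 (1668.0 FPKM, ratio 1.94). Genes of complement, Fc and phagocytic receptors held 3.18%, with 72 of 114 at 1 FPKM or more and 2 of 72 (2.78%) raised. Their median length (2510 nt) lies in the same decile, with its share of 4.45%.

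Energy metabolism followed. Respiratory chain and ATP synthase subunits held 2.97%, against 2.18% to 2.48% in the other groups, and 25 of 92 (27.2%) were raised, against 6.54% of all genes and 29.3% of the shortest decile, to whose range the median length of the class (963 nt) belongs. The class was led by Atp5e at 1096 FPKM (ratio 2.86), Cox4i1 at 953.4 FPKM (1.502), Cox6b1 (1.502) and Atp5k (1.77). Genes encoded in mitochondrial DNA were not analysed here, so the share covers the nuclear subunits. Glycolytic and pentose phosphate enzymes held 1.29%, led by Pkm, Aldoa (1407 FPKM), Taldo1 (ratio 1.58) and Ldha (649.1 FPKM). Gapdh was at 273.5 FPKM, so Pkm stood 5.99-fold above it in values from uniquely mapped reads. How far reads lost to copies elsewhere in the genome lowered either value was not tested. Of the hexokinases, which start glycolysis, Hk3 at 120.2 FPKM lay above Hk1 (22.9 FPKM) and Hk2 (15.6 FPKM).

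The other classes were smaller. Surface proteins and receptors held 2.53%, led by Cd52 (1427 FPKM), Emr1, Mpeg1 and Ifitm3 (798.9 FPKM). Iron, heme and redox proteins held 2.45% without ferritin, led by Prdx1, Sepp1 (1303 FPKM), Hmox1 (905.5 FPKM), which degrades heme, and Gpx1 (868.5 FPKM). Translation factors held 2.42%, antigen presentation and proteasome genes 2.35%, folding factors 2.11%, predicted genes 1.64%, led by Gm15772 (2177.64 FPKM), S100 proteins, annexins and galectins 1.55%, led by S100a4 (2034.36 FPKM, ratio 1.798), lipid handling 0.9998%, led by Fabp5, Plin2 (775.6 FPKM), Pltp and Pla2g7, pseudogenes 0.346%, histones 0.295%, led by H3f3a (629.2 FPKM), and long noncoding RNAs 0.252%, led by 1810058I24Rik (126 FPKM) and Neat1 (113.3 FPKM). Cytokines, chemokines and growth factors held 0.773%, against 0.869% to 2.82% in the other groups. All genes outside these lists, 17333 in number, held 36.4%.

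**Figure D3:**
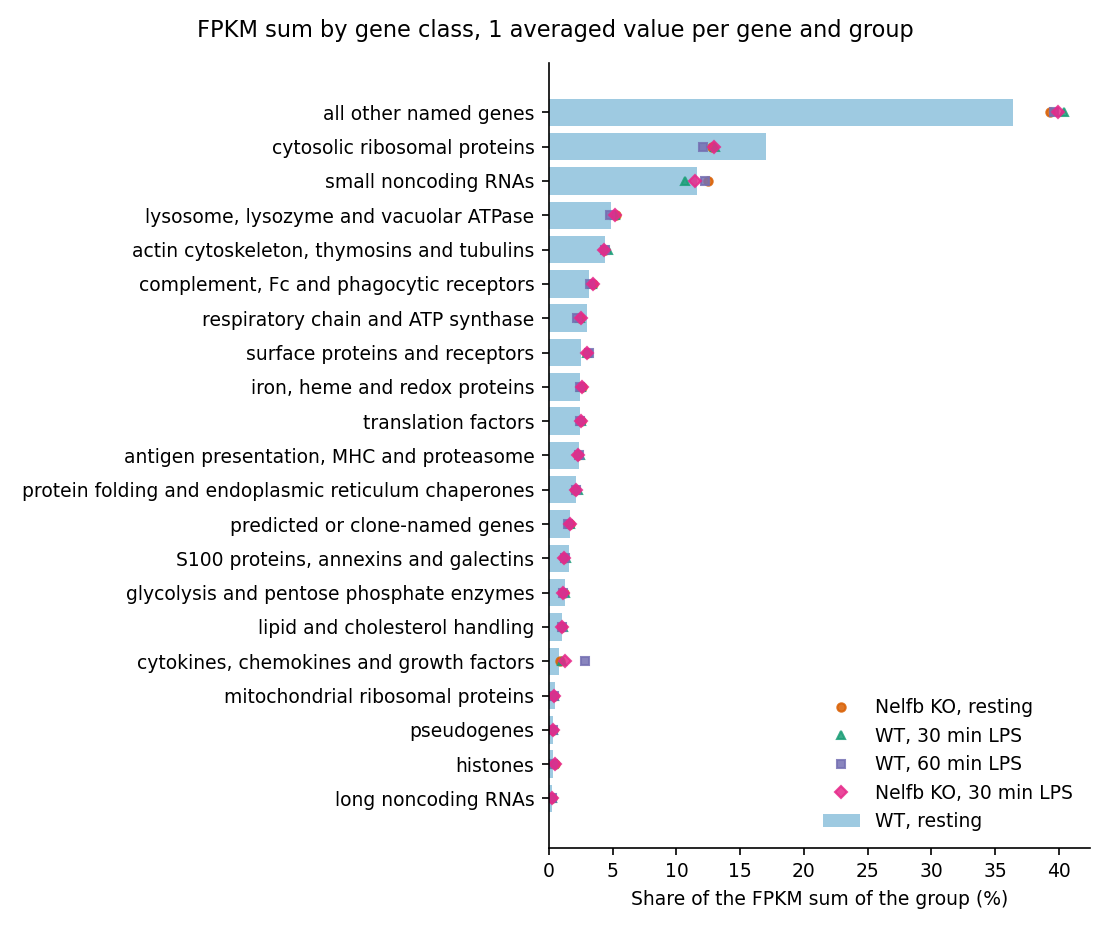
Share of the FPKM sum (%) held by each gene class in resting WT BMDM (bars) and in the other 4 groups (points), each from 1 averaged value per gene and group. Ribosomal proteins and respiratory chain genes have a larger share in resting WT than in any other group (16.99% against 12.1% to 13.02%, and 2.97% against 2.18% to 2.48%).

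The macrophage markers were all present. All 16 pan-macrophage genes reached 10 FPKM and 12 reached 100 FPKM, with a median of 546.648 FPKM against 11.65 FPKM over all expressed genes. Tyrobp, Fcer1g, Cd68, Emr1 (1209.09 FPKM), which encodes the surface antigen F4/80, Trem2 (943.587 FPKM, ratio 1.57), Mpeg1 (875.7 FPKM), C1qa (844.735 FPKM), Csf1r (662.224 FPKM) and Cd14 (431.1 FPKM) led them, and the lowest were Mertk (28.0 FPKM) and Lyz2 (19.7 FPKM). Lyz2 was at 23.3 to 55.5 FPKM in the other groups and its near-identical neighbour Lyz1 was at 62.1 FPKM. Both genes share most of their sequence and the authors kept uniquely mapped reads, so both values are uncertain. Lyz2 is also the locus that drives Cre in these mice, and what these contribute was not tested.

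Markers of other cell types were low for the most part. Of 89 such genes 21 reached 1 FPKM and the median was 0.112 FPKM. Those above 10 FPKM were the platelet chemokine Pf4 (438.719 FPKM), the osteoclast genes Acp5 (102.713 FPKM) and Ctsk (13.8 FPKM), the neutrophil gene S100a8 (98.8 FPKM), the B cell gene Cd79b (23.4 FPKM) and the monocyte gene Cx3cr1 (14.3 FPKM). Some of their partners were far lower, with S100a9 at 0.901 FPKM, Cd79a at 0.115 FPKM, Itga2b at 0.475 FPKM and Dcstamp at 0.247 FPKM. Of the 5 monocyte markers, however, 4 reached 1 FPKM, with Ly6c2 at 5.90 FPKM, Nr4a1 at 4.67 FPKM and Ccr2 at 1.08 FPKM beside Cx3cr1. All 5 markers of NK cells, all 6 of the erythroid line, all 6 of mast cells and basophils, all 3 of adipocytes, all 4 of hepatocytes and all 5 of neurons were under 1 FPKM. Of 6 fibroblast genes 4 were above it, led by Col1a2 (5.12 FPKM), Col1a1 (3.99 FPKM), Col3a1 (2.39 FPKM) and Dcn (2.05 FPKM). Summed over all 89 markers the level was 757.695 FPKM, against 612.657 to 784.314 FPKM in the other groups, and whether any of it came from other cells was not tested. The Y-linked genes Eif2s3y (39.6 FPKM), Ddx3y (15.5 FPKM), Uty (5.06 FPKM) and Kdm5d (4.29 FPKM) were expressed, and Xist, the RNA of the inactive X chromosome, was at 0.000505 FPKM.

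Spi1 was the highest transcription factor of 210 on the list. It was at 313.25 FPKM (chr2:91082390-91115756), 5.55-fold above Irf8 and ahead of the other ETS genes Ets2 (43.0 FPKM), Fli1 (26.1 FPKM), Elf1 (21.4 FPKM), Elf4 (17.1 FPKM) and Elk3 (16.7 FPKM). Of the 18 ETS genes 17 reached 1 FPKM, at a median of 11.5 FPKM. Overall 160 of the 210 factors reached 1 FPKM, 105 reached 10 FPKM and 8 reached 100 FPKM, and together they held 0.688% of the sum. Among them 3 were raised, namely Irf7, Ddit3 and Atf5. Over all genes assessed the raised share was 6.54%, and it was 1.26% in the length decile that holds their median length (3739 nt).

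The Id proteins, which block helix-loop-helix factors, were next, with Id2 at 253.717 FPKM and Id3 at 124.797 FPKM. The stress and AP-1 group was led by Nfe2l2 (116.1 FPKM), the regulator of the oxidant response, Atf3 (105 FPKM), a repressor of Toll-like receptor targets, Atf4 (75.9 FPKM), Junb (69.1 FPKM), Nfe2l1 (60.8 FPKM) and Xbp1 (48.9 FPKM), with Fosb at 0.0994 FPKM at its end. Among interferon regulatory factors Irf5 (107.277 FPKM) and Irf7 (103 FPKM) were above Irf8 (56.4 FPKM), Irf9 (23.4 FPKM), Irf1 (22.5 FPKM) and Irf2 (22.2 FPKM), and Irf4 was at 0.0811 FPKM. Maf was at 102.504 FPKM, and Cebpb (84.8 FPKM) was 1.95-fold above Cebpa (43.5 FPKM).

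Factors that wait for a signal were present at moderate levels. All 5 NF-kB genes were expressed, Rela at 37.9 FPKM, Nfkb1 at 34.2 FPKM, Nfkb2 at 33.3 FPKM, Relb at 26.9 FPKM and Rel at 5.65 FPKM. All 7 STAT genes were expressed, led by Stat6 (58.1 FPKM). Of nuclear receptors 16 of 26 reached 1 FPKM, led by the oxysterol receptors Nr1h3 (52.4 FPKM) and Nr1h2 (50.1 FPKM) and their partner Rxra (34.1 FPKM). The lysosomal regulators of the MITF/TFE family were at 44.2 FPKM (Tfe3), 16.5 FPKM (Tfeb), 15.8 FPKM (Mitf) and 9.09 FPKM (Tfec), the last outside the naming rule. In the KLF, SP and EGR group Klf6 led at 71.7 FPKM, 11 of 15 reached 1 FPKM, and the immediate early gene Egr1 was at 2.41 FPKM. Of 28 lineage factors only 7 reached 1 FPKM, led by Lmo2 (61.2 FPKM), Zeb2 (48.4 FPKM), Cbfb (41.0 FPKM), Lyl1 (24.1 FPKM), Ikzf1 (22.9 FPKM) and Runx1 (11.5 FPKM), while the T cell factor Foxp3 was at 0.00938 FPKM and the B cell factor Pax5 at 0.00851 FPKM, both named after their values were seen.

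Receptors were higher as a group than transcription factors. Of 160 receptors and adaptors 134 reached 1 FPKM and 41 reached 100 FPKM, at a median of 28.5 FPKM against 10.0 FPKM for transcription factors. Raised were 3 of them, against 6.54% of all genes assessed and 1.74% in the length decile that holds their median length (3222.5 nt). The ITAM adaptors Tyrobp (chr7:30413760-30417585) and Fcer1g, through which many activating receptors signal, were the highest, 1.57-fold apart. Of their partners Trem2, a lipid sensor, lay far above Trem1 (1.21 FPKM, named after its value was seen), and of the Fc receptors Fcgr3 (247 FPKM), Fcgr4 (128 FPKM) and Fcgr1 (104 FPKM) led. The growth factor receptors were led by Csf1r, which was 7.07-fold above Csf2ra (93.7 FPKM), with Csf2rb at 55.9 FPKM, Csf2rb2 at 46.1 FPKM and Csf3r at 31.3 FPKM. The ligand Csf1 was at 1.99 FPKM, so Csf1r stood 333-fold above it in these cells.

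Of the Toll-like receptors Tlr7 and Tlr13, both endosomal, were the highest, while the endosomal Tlr9 and Tlr3 were low. Unc93b1, the chaperone that brings such receptors to endosomes, was at 495.866 FPKM, Cd14 at 431.1 FPKM, Tlr7, which senses single-stranded RNA, at 131 FPKM, Tlr13, which senses bacterial ribosomal RNA, at 119 FPKM, Cd180 at 112 FPKM and Tlr8 at 95.2 FPKM. Tlr4, the LPS receptor, was at 22.0 FPKM, so Tlr7 was 5.95-fold and Tlr13 5.41-fold above it, and its co-receptor Ly96 was at 32.6 FPKM. Tlr2 was at 85.05 FPKM, Tlr9 at 17.3 FPKM and Tlr3 at 4.63 FPKM, whereas Tlr5 (0.267 FPKM), Tlr12 (0.00800 FPKM) and Tlr11 (0.00550 FPKM) were under the limit. Ly96, Tlr2, Tlr3, Tlr4, Tlr5, Tlr9, Tlr11 and Tlr12 lie outside the naming rule and were named after their values were seen.

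Uptake and lectin receptors covered a wide range. Of scavenger and efferocytic receptors Cd36 (790.2 FPKM), Marco (260 FPKM), Cd5l (213 FPKM, raised), Stab1 (176 FPKM), Msr1 (131 FPKM) and Scarb2 (105 FPKM) led, and Cd163 was at 0.587 FPKM and Timd4 at 0.178 FPKM. Of the C-type lectins Clec4d (1060.75 FPKM) was followed by Clec4a1 (439 FPKM), Clec12a (251.2 FPKM), Clec4a2 (150 FPKM), Clec4n (145 FPKM) and Clec4a3 (94.2 FPKM), and Cd209a and Cd209b were listed at 0. The complement receptors C3ar1 (438.646 FPKM) and C5ar1 (155 FPKM) and the integrins Itgb2 (365.298 FPKM), Itgam (258.8 FPKM), Itgb1 (167 FPKM) and Itgal (107 FPKM) were high, whereas Cr2 was listed at 0. Itgb2 and Itgam, which pair as the Mac-1 integrin, were 1.41-fold apart. Cd163 and Timd4 were named after their values were seen.

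Chemokine receptors were the lowest receptor family by median, at 1.36 FPKM, with Cxcr4 (88.2 FPKM) above Cx3cr1 (14.3 FPKM), Ccrl2 (13.9 FPKM), Cxcr3 (4.38 FPKM) and Ccr3 (2.35 FPKM), and the monocyte receptor Ccr2 was at 1.08 FPKM. Of cytokine receptors Tnfrsf1b (306.34 FPKM) was 3.39-fold above Tnfrsf1a (90.3 FPKM), Il10rb was at 139 FPKM, Il2rg at 84.98 FPKM, Ifngr2 at 84.7 FPKM and Ifnar2 at 76.2 FPKM. Among G protein-coupled and purine receptors Emr1, Fpr1 (263 FPKM), P2rx4 (206 FPKM), P2ry6 (91.6 FPKM), Fpr2 (76.8 FPKM) and Cd97 (36.1 FPKM) led. Among checkpoint receptors Sirpa (833.8 FPKM), which reads the signal of Cd47, led, followed by Lilrb4 (348 FPKM), Pirb (174 FPKM), Ptprc (102 FPKM) and Cd47 (102 FPKM).

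Few cytokines were high at rest. Of 138 secreted factors 81 reached 1 FPKM and 19 were listed at 0. The interleukins had a median of 0.109 FPKM, 8 of 26 reached 1 FPKM, and those were Ebi3 (74.1 FPKM), the receptor antagonist Il1rn (34.8 FPKM), Il15 (10.2 FPKM), Il10 (8.84 FPKM), Il18 (7.90 FPKM), Il16 (6.02 FPKM), Il1b (3.21 FPKM) and Il1a (1.35 FPKM). Il6 was at 0.308 FPKM and Il12b at 0.253 FPKM, and the 9 listed at 0 included the T cell products Il2, Il3, Il5, Il13, Il17a, Il21 and Il22. Of the TNF superfamily Tnf was at 34.5 FPKM, Tnfsf12 at 34.2 FPKM and Tnfsf13 at 10.4 FPKM, and Cd40lg was listed at 0. No interferon reached 1 FPKM, as Ifnb1 was at 0.0845 FPKM and Ifng at 0.0176 FPKM, and Ifna2, Ifna4, Ifnl2 and Ifnk were listed at 0.

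Chemokines had high members. Pf4 was at 438.719 FPKM, Cxcl16, a scavenger receptor and chemokine, at 213.8 FPKM, Ccl6 at 165.9 FPKM and Ccl9 at 142.7 FPKM, followed by Ccl4 (86.3 FPKM), Ccl3 (75.4 FPKM), Ccl8 (44.3 FPKM) and Ccl2 (40.5 FPKM). Cxcl2 was at 9.93 FPKM, Cxcl10 at 5.11 FPKM, Cxcl3 at 3.31 FPKM and Cxcl1 at 2.67 FPKM, and Cxcl11, Ccl11 and Ccl20 were listed at 0. The growth factor group was led by Grn, Tgfb1 (137.2 FPKM), Tgfbi (91.0 FPKM), Igf1 (77.9 FPKM), Vegfb (27.1 FPKM) and Vegfa (25.0 FPKM). Other secreted products were the highest, with C1qb, Spp1, which encodes osteopontin, Saa3 (1552.14 FPKM), an acute-phase protein, and C1qc (1327.22 FPKM), then Lpl (473.8 FPKM), Mif (468.4 FPKM, raised) and the complement regulator Cfp (448.8 FPKM). Chil3 (1.06 FPKM, named after its value was seen) and Retnla (listed at 0), genes of the IL-4 response, were at the bottom.

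**Figure D4:**
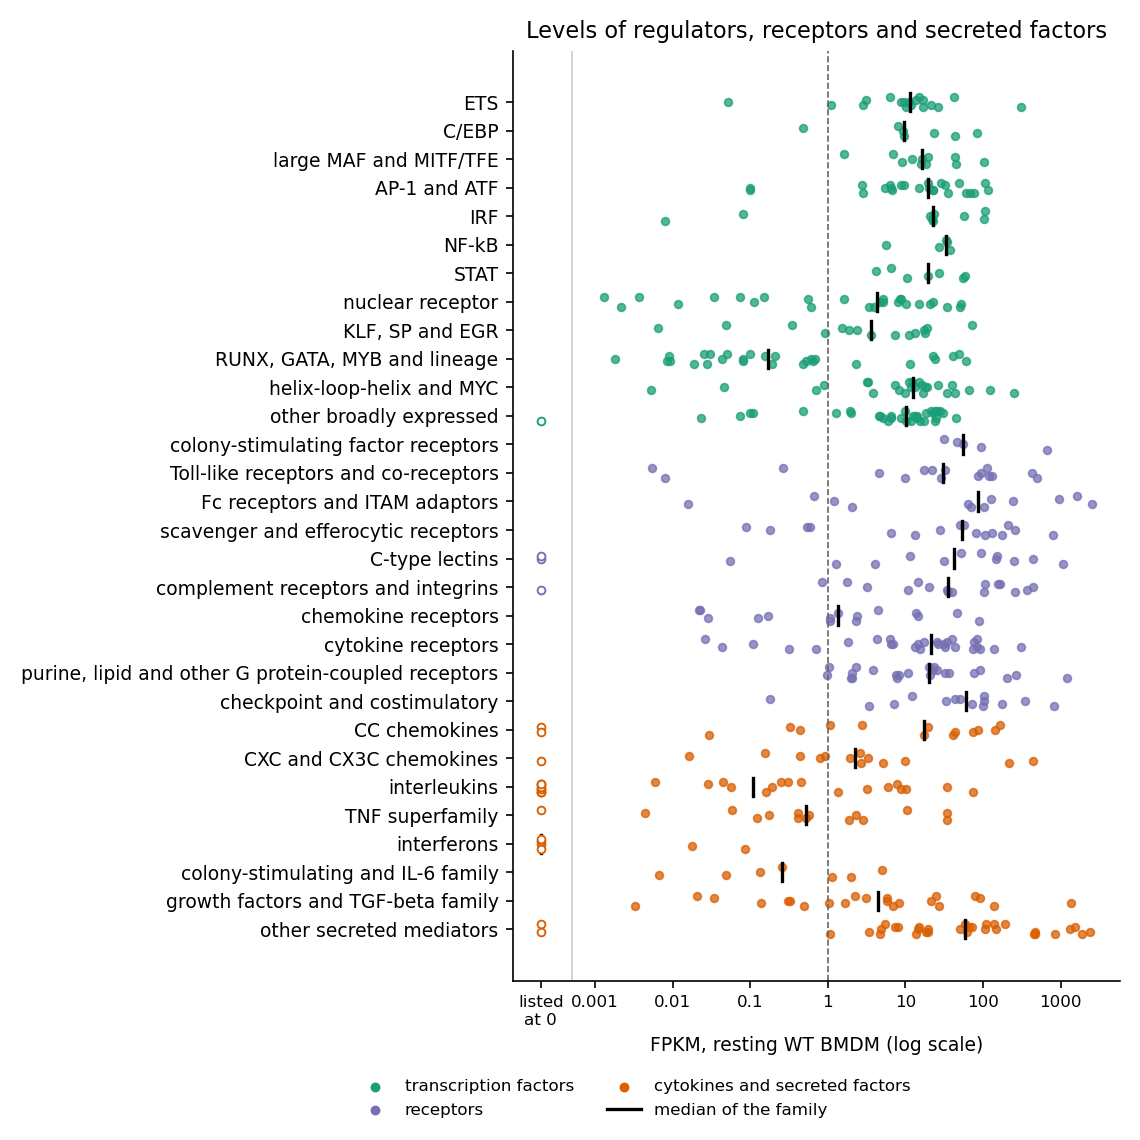
FPKM of each list member in resting WT BMDM on a log scale, by family, for transcription factors, receptors and secreted factors; black bars are family medians, open circles genes listed at 0, and the dashed line 1 FPKM. The receptor list has a higher median than the transcription factor list (28.5 and 10.0 FPKM), but their families overlap. The NF-kB median (33.3 FPKM) lies above those of cytokine receptors (21.4 FPKM) and chemokine receptors (1.36 FPKM). Interleukins and interferons centre below 1 FPKM.

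Subunits of some complexes were level and those of others were not. The 14 genes of the proteasome core ranged 2.81-fold, from 101.569 FPKM (Psma5) to 285.06 FPKM (Psmb5, raised, ratio 1.69). The 8 CCT chaperonin genes ranged 1.90-fold, from 76.5 FPKM (Cct6a) to 146 FPKM (Cct5). The 7 genes of the Arp2/3 actin nucleator ranged 2.88-fold, from Arpc4 (258.62 FPKM) to Arpc1b (745.338 FPKM). In C1q, whose chains assemble in equal numbers, C1qb was 2.84-fold above C1qa and 1.81-fold above C1qc. In the vacuolar ATPase 15 of the 16 genes lay between 59.8 FPKM (Atp6v0a1) and 743.785 FPKM (Atp6v0c), and Atp6v0d2 was at 18.03 FPKM. In the phagocyte NADPH oxidase Cyba (1534.27 FPKM, ratio 1.59) was 3.95-fold above its partner Cybb (388.079 FPKM), a ratio of 1.95 to 2.26 in the other groups, and Rac2 was at 242 FPKM, Ncf1 at 208.5 FPKM and Ncf4 at 135.235 FPKM. MHC class I was high, with B2m 4.72-fold above H2-K1 (1001.14 FPKM), whereas Tap1 (25.7 FPKM) and Tap2 (30.2 FPKM) were low. MHC class II was low, with Cd74 at 115.166 FPKM, H2-Aa at 25.8 FPKM, H2-Ab1 at 23.9 FPKM and its activator Ciita at 0.186 FPKM.

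The NELF complex, which holds RNA polymerase II near the promoter and whose Nelfb gene the study deletes, had 3 of its 4 genes above the median of expressed genes. Nelfe was at 33.7 FPKM and Nelfb at 21.9 FPKM, both raised, Nelfcd at 14.1 FPKM and Nelfa at 8.62 FPKM, a range of 3.91-fold. The median behind the mark of Nelfb takes in the Nelfb KO groups, in which this gene is deleted. Its mark therefore cannot be told apart from genotype. Of 12 RNA polymerase II genes the largest subunit gene Polr2a was at 29.98 FPKM and Polr2f, a short one, led at 109.356 FPKM (raised). Raised were 4 of the 12, against 6.54% of all genes assessed. The share was 29.3% in the shortest length decile, to whose range their median length (982.5 nt) belongs.

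Gene families known from other tissues were mostly listed at 0. Of 1116 olfactory receptor genes 1087 (97.4%) were listed at 0 and 2 reached 1 FPKM, Olfr613 (1.63 FPKM) and Olfr856-ps1 (1.56 FPKM). Of 332 vomeronasal receptor genes 311 (93.7%), of 43 beta-defensins 41 (95.3%), of 52 keratins 43 (82.7%), of 38 taste receptors 34 (89.5%) and of 26 prolactin family genes 22 (84.6%) were listed at 0, and none of these reached 1 FPKM. Hox genes, which pattern the body axis, differed in that 18 of 41 were listed at 0 and yet 1 reached 1 FPKM, Hoxb4 at 1.12 FPKM. By contrast 225 of 362 Zfp zinc finger genes and 176 of 374 solute carriers reached 1 FPKM, the latter led by Slc13a3 (544.458 FPKM), a dicarboxylate transporter, and Slc25a5 (432.505 FPKM), a mitochondrial ADP/ATP carrier. Over all protein-coding genes 5100 of 20410 (25.0%) were listed at 0. The families and their leading genes were chosen after gene names had been seen.

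Promoters of genes listed at 0 and of expressed genes differed in base composition. The windows ran from 250 bases before to 50 bases after the RefSeq start and were found for 17826 genes, 80.4% of the expressed ones. The median CpG observed over expected, which is the CpG count relative to that foreseen from the C and G counts, was 0.197 for the 4885 promoters of genes listed at 0, 0.472 above 0 to under 1 FPKM, 0.783 at 1 to under 10, 0.7998 at 10 to under 100, 0.749 at 100 to under 1000 and 0.692 in the 71 at 1000 FPKM and over. The share with a value of 0.6 or more was 11.8% for genes listed at 0 and 78.5% at 10 to under 100 FPKM. The TATA box, searched as TATAAA on both strands, was held by 24.5% of promoters of genes listed at 0, by 6.22% at 10 to under 100 FPKM and by 18.3% at 1000 FPKM and over. Median GC content of these promoters was 46.7%, 61.3% and 59.0% in the same order, and its part in the TATAAA counts was not tested. Median transcript length of protein-coding genes went from 3515 nt at 1 to under 10 FPKM to 1033.5 nt at 1000 FPKM and over.

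Classes of expressed genes differed in the motifs of their promoters. The core of the PU.1 site, GAGGAAG on either strand, was found in 21 of 54 promoters of complement, Fc and phagocytic receptor genes (38.9%) and in 42 of 152 of surface proteins and receptors (27.6%), against 13.1% of all promoters. The median CpG observed over expected of these classes was 0.220 and 0.407, with 7.41% and 38.2% of promoters at 0.6 or more, against a median of 0.797 for the genes outside the lists. The CLEAR core of the MITF/TFE family, TCACGTGA, was in 7 of 67 lysosomal promoters (10.4%), against 1.30% of all. A run of 8 or more pyrimidines within 10 bases of the start was in 20 of 65 ribosomal protein promoters (30.8%), against 7.92% of all. It is a loose search for the pyrimidine tract that begins mRNAs whose translation follows mTOR. A run before the start, outside the mRNA, was counted as well. The YY1 site AAGATGG was in 13 of 68 promoters of mitochondrial ribosomal proteins (19.1%), against 6.53%. It was also in 16.9% of cytosolic ribosomal protein promoters, 14.3% for the respiratory chain, 14.1% for folding factors and 13.2% for translation factors. TATAAA was in 17 of 33 histone promoters (51.5%), against 12.9%, though in 20% of the 15 promoters of histone genes of at least 1000 nt. The histone promoters had a median GC content of 46.7%. The class counts cover expressed genes and the comparison all promoters, and among expressed genes outside the lists the shares were 13.4% for the PU.1 core, 2.36% for the CLEAR core, 7.88% for the pyrimidine run, 7.80% for the YY1 site and 5.99% for TATAAA. A match is a run of letters and not a bound site.

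One promoter is shown for each of these classes, that of the highest gene holding the motif, from 250 bases before to 20 bases after the start, with the motif in capitals on the strand of the gene. They are C1qc (1327.22 FPKM, chr4:136892895-136893164, minus strand, the PU.1 core read on the other strand 194 bases before the start), Cd72 (400.1 FPKM, chr4:43454607-43454876, minus, likewise 48 bases before), Atp6v0e (362.284 FPKM, chr17:26676146-26676415, plus, CLEAR core 3 bases after), Rplp2 (2245.79 FPKM, chr7:141447401-141447670, plus, pyrimidine run from 5 bases before), Mrpl52 (173.2 FPKM, chr14:54426659-54426928, plus, YY1 site 91 bases before) and H3f3b (305.9 FPKM, chr11:116024485-116024754, minus, TATA box 27 bases before), all on GRCm38.p6.
C1qc: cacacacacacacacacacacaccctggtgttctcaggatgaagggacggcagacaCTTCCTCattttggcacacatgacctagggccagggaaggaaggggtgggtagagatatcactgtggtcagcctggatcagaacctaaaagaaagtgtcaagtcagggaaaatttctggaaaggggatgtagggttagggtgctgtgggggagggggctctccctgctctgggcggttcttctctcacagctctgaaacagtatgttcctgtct
Cd72: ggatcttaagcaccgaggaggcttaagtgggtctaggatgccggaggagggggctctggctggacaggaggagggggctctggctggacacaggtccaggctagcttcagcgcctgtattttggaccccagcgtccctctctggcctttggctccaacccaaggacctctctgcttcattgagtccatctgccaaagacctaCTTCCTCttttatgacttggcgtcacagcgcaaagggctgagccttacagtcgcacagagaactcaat
Atp6v0e: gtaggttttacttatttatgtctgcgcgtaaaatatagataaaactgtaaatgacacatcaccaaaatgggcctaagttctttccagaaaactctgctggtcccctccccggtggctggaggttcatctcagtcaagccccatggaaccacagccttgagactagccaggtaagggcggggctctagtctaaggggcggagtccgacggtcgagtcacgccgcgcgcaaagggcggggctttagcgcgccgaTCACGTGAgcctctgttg
Rplp2: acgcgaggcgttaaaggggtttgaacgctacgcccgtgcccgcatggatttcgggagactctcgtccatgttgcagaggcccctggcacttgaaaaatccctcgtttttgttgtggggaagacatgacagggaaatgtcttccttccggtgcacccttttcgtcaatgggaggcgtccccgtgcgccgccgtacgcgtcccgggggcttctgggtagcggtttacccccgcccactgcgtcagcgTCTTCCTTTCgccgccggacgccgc
Mrpl52: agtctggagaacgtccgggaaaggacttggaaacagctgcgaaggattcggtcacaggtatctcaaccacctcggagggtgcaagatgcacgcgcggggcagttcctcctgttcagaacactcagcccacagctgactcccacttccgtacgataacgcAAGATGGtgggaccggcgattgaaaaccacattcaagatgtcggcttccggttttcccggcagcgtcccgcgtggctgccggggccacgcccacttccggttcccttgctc
H3f3b: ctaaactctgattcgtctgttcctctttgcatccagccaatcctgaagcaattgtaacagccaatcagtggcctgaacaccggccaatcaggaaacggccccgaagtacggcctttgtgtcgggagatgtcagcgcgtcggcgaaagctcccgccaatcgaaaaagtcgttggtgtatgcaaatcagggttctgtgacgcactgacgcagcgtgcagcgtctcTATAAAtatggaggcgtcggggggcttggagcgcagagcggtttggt
The CpG observed over expected of the whole windows was 0.144 for C1qc and 0.283 for Cd72, and lay at 0.874 for Atp6v0e, 1.14 for Rplp2, 0.843 for Mrpl52 and 1.06 for H3f3b.

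**Figure D5:**
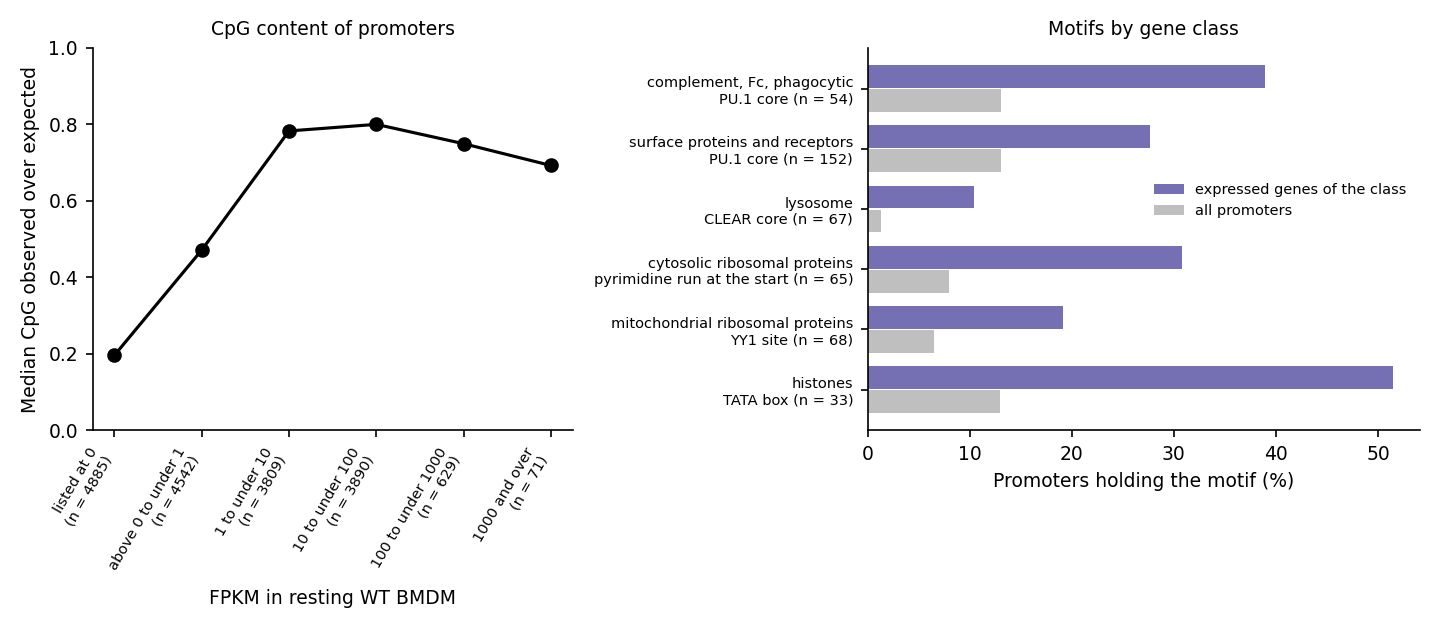
Left, median CpG observed over expected of promoter windows by FPKM in resting WT BMDM, and right, the percent of promoters holding a motif in expressed genes of a class (purple) and in all 17826 promoters of expressed and unexpressed genes (grey), n being promoters. CpG content is lowest for genes listed at 0 (0.197), and each class shown holds the motif listed with it more often than all promoters do, for example 38.9% against 13.1% for the PU.1 core in complement, Fc and phagocytic receptor genes.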

How the data were processed

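RNA-seq of polyadenylated RNA (paired-end) from 15 BMDM libraries in 5 groups of 3, sorted into groups from genotype and time as labelled, was used. The authors mapped reads to mm10 with TopHat2 2.1.0 after CASAVA 1.8, kept uniquely mapped reads, and deposited FPKM values of Cuffdiff (Cufflinks 2.2.1) as 1 average per gene and group. The first resting WT column was analysed. Depth is unknown, since low values gave no whole-read steps. Not used were 3 columns that repeat group values, and the authors' fold changes and p-values. Some items of the table are not reported here.

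With Python 3.11.15, pandas 2.3.3 and numpy 2.4.6, genes were ranked, and shares of the FPKM sum were taken over 21 classes set by symbol and GENCODE M21 biotype. Gene lists held 709 distinct genes. Class patterns were corrected after gene names were seen, and members and lists were chosen with earlier results of these data known. Length is that of the longest annotated transcript (23513 genes, 938 by an older symbol). Promoters are those of RefSeq (GRCm38.p6) at the most upstream start. A value was called raised at 1.5 times the median of the other 4 groups or more. Named are the 50 highest genes, the 6 highest of each family with those listed at 0 in families of 20 or fewer, members of complexes, the 10 highest raised genes and the 4 highest of each class. Beyond those marked in the text, Mertk, Lyz2, Lyz1, Tbp, Fosb, Irf4, Egr1, Mitf, Il1b, Il1a, Il6, Il12b, the interleukins listed at 0, Retnla, Cfp, Cd63, Ctsl and Lgmn were named after their values were seen. The functions were tested on simulated data. Alternatives were other FPKM limits, length filters, FPKM times length, removal of the length trend and, chosen after seeing the data, leaving out small noncoding RNAs.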

Additional observations from a re-analysis of the deposited data

How the results depend on the processing

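The shares depend on how short transcripts are treated. The highest gene held 6.08% of the FPKM sum, but 0.884% among genes of at least 300 nt, 1.149% among those of at least 1000 nt, 0.857% as a share of FPKM times length and 0.868% without small noncoding RNAs, and the 10 highest genes held 14.4%, but 7.01%, 7.76%, 5.57% and 6.89% under the same settings. As FPKM times length the 50 highest held 15.6%, the 100 highest 22.7% and 588 genes held 50% of the sum (358 genes at 1000 nt and over, 209 as reported). By class, FPKM times length gave 55.4% for genes outside the lists, 8.79% for cytosolic ribosomal proteins, 0.558% for small noncoding RNAs, 1.56% for the respiratory chain, 0.931% for S100 proteins, annexins and galectins, 0.216% for pseudogenes and 0.518% for long noncoding RNAs. Genes of at least 1000 nt gave 8.35% for ribosomal proteins, 0.00684% for small noncoding RNAs, 1.26% for the respiratory chain, 3.74% for translation factors and 1.98% for glycolysis, and genes of at least 300 nt gave 0.00934% for small noncoding RNAs and 1.02% for predicted genes. A ratio of 2 or more held for 80 genes, against 681 at 1.5. The histone TATA box share was 20% among genes of at least 1000 nt. Removing the length trend moved none of the 47 values recomputed by over 1.5 times. The decile medians it divides by ran only from 1.33 to 0.85. A move of that size was hardly possible, so nothing is concluded from this.

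No paired analysis was possible because the table holds 1 average per group. For the same reason leaving out a replicate was not run, nor were the second resting WT column and protein features. The cause of the zeros and of the length trend was not tested, and without depth no counting error can be given for low values.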
